A study of Homo sapiens with 20 samples.

Results

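The 10 genes described here encode the main cytosolic and mitochondrial heat shock chaperones: HSP90AA1, HSP90AB1, HSPA8, HSPA4, HSPH1, DNAJA1, DNAJB1, HSPB1, HSPD1 and HSPE1. They were chosen by name, and each was read at every probe set that the array's annotation gives to that gene alone. Of the 54675 probe sets on the array, 25 met this rule and covered 9 of the 10 genes, and 24 of the 25 passed the filter on dim signal. The 4 probe sets that carry the name HSPA8 are also named for the small nucleolar RNA genes SNORD14C and SNORD14D, which lie inside the HSPA8 span on chromosome 11, so HSPA8 is not analysed here. The exception to the filter was the dimmest of the 5 HSPD1 probe sets, which measured 2.85 to 3.25 on the log2 intensity scale over the 20 arrays. Where a gene has several probe sets they are given letters in the order of their mean intensity, so that HSPH1-a is the brightest and HSPH1-c the dimmest of the 3 for HSPH1. The letters order probe sets and not amounts of RNA, since probe sets differ in how strongly they bind.

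Molecular chaperones bind unfolded or partly folded proteins and help them reach, or return to, a working shape. HSP70-type proteins take up short exposed stretches of a client with the help of J-domain co-chaperones and release it when an exchange factor replaces the bound nucleotide, HSP90 acts later on clients such as kinases and steroid receptors, small heat shock proteins hold clients without using ATP, and HSP60 with its HSP10 lid folds imported proteins inside mitochondria. Many of these genes are switched on by the transcription factor HSF1, which binds repeated GAA units called heat shock elements, and fast-growing leukaemia cells commonly carry high levels of several of them.

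The series measured RNA on Affymetrix U133 Plus 2.0 arrays in 5 human cell lines from acute lymphoblastic leukaemia of the T lineage (T-ALL), CEM, DND41, HPB-ALL, T-ALL1 and KOPT-K. Cells of each line were kept for 16 h with the NBD peptide, which mimics the NEMO-binding domain of the IκB kinases and blocks canonical NF-κB signalling, or with a control peptide. There were 2 arrays per line and peptide, which gave 10 groups and 20 arrays, and no group was left without peptide. The labels write the dose as 100 µM in one place and as 100 mM in another, so its unit is uncertain, and the peptides' sequences are not used here.

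Every level below is a log2 intensity, and every difference is a log2 difference from 1 limma fit over the 26260 probe sets with 1 gene name that passed the filter, with p-values adjusted over all of them by the Benjamini-Hochberg method and a threshold of 0.05. Nothing in the labels tells if both arrays of a group stem from different cultures, and the p-values therefore cover the spread between arrays alone, which may be technical. Arrays of 1 group correlated at 0.991 to 0.997, and 0 array pairs held mostly identical values. The columns of T-ALL1 and KOPT-K differ in decimals and mean intensity from those of CEM, DND41 and HPB-ALL, so levels were compared only within each of these sets of lines. The T lineage check found 7 of 7 markers at or above the filter value in CEM, HPB-ALL, T-ALL1 and KOPT-K and 6 of 7 in DND41, where CD2 averaged 4.19. MS4A1, CD14, LYZ, COL1A2, COL3A1 and KRT19, markers of B cells, myeloid cells, fibroblasts and epithelium, were below the filter value on all 20 arrays. Other genes of the same lists were not. CD79B, ITGAM and COL1A1 reached it on 20 arrays, CD79A on 19, CSF1R on 8 and EPCAM on 2. CD79A averaged 10.82 in DND41. These lists therefore do not show that markers of other cell types were absent.

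The start regions of 4 of the genes are printed because the results below turn on them: DNAJA1 moved in opposite directions in 2 lines, HSPB1 differed most between lines, and HSPE1 and HSPH1 were called in the average over lines. Each window runs from 250 bases before to 50 bases after the RefSeq gene start on GRCh38.p14, 5′ to 3′ on the gene's own strand. Capitals mark every match to GAANNTTC or TTCNNGAA, the paired units of a heat shock element. Both motifs read the same on either strand, and they overlap where 3 units follow each other.
DNAJA1, chr9:33025023-33025322, plus strand: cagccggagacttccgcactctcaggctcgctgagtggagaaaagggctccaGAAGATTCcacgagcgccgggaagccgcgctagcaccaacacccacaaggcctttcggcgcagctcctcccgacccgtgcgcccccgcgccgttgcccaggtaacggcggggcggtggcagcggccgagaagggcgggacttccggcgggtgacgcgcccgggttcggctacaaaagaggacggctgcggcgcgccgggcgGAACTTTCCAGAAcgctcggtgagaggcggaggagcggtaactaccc
HSPB1, chr7:76302423-76302722, plus strand: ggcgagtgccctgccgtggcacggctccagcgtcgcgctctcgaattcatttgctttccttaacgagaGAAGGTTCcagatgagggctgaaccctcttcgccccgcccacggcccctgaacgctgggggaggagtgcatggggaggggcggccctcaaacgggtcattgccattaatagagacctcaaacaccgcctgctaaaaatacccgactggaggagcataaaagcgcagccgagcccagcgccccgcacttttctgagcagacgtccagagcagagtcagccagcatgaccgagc
HSPE1, chr2:197500129-197500428, plus strand: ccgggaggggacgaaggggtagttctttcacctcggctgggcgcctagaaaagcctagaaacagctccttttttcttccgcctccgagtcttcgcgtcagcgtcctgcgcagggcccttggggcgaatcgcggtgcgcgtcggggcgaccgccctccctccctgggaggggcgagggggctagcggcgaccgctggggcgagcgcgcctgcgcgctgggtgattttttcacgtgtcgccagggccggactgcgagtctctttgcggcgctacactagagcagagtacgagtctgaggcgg
HSPH1, chr13:31162339-31162638, minus strand: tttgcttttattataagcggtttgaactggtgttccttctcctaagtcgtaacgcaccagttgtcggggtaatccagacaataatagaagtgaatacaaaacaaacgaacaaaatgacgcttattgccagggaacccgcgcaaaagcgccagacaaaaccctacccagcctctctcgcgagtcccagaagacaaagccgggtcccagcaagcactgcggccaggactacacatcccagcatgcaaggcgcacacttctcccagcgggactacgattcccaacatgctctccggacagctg

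All 10 genes had at least 1 window in the RefSeq table, 16 windows of 300 bases in all. GAANNTTC or TTCNNGAA was present in 8 of the 16 windows (50%) and in 7 of the 10 genes, against 13.5% of 35116 windows over all genes. The longer form with 3 units, GAANNTTC with NNGAA directly after it on either strand, was present in 5 windows of 5 genes, against 0.49% of all windows. DNAJA1 had 3 matches, at -198, 3 and 8 from the gene start (0), and those at 3 and 8 overlap. HSPB1 had 1 match, at -182. The HSPE1 and HSPH1 windows held none, which says only that these letters are not in these stretches. The NF-κB consensus, searched by name, matched 1 of the 16 windows, an HSP90AB1 window, against 5.91% of all windows. HSPD1 and HSPE1 stand head to head on chromosome 2 with 104 bases between their spans.

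The first comparison asks which lines carry high and low chaperone RNA when only the control peptide is present. HPB-ALL carried the highest level of CEM, DND41 and HPB-ALL at nearly every chaperone probe set, CEM carried the lowest at most of them, and T-ALL1 lay below KOPT-K at nearly all. The order of T-ALL1 and KOPT-K did not hold at many probe sets once RNA integrity was a covariate, as given further on. The widest gap was in HSPB1, the small heat shock protein HSP27. The inducible cytosolic HSP90, HSP90AA1, was at close to the same level in CEM, DND41 and HPB-ALL at 3 of its 4 probe sets.

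Among CEM, DND41 and HPB-ALL, 14 of 24 chaperone probe sets differed in level by the limma F-test (58.3%), beside 56.7% of all probe sets tested, so the share that differed was close to that of the array as a whole. The direction was more one-sided. HPB-ALL was the highest of the 3 lines at 22 of 24 probe sets, against 35.5% of all tested, and CEM was the lowest at 18 of 24, against 33.7% of all tested. CEM was lower than HPB-ALL past the threshold at 15 of 24 probe sets (62.5%, against 21.2% of all tested) and higher at 0 of 24 (22.7% of all tested). CEM was lower than DND41 at 8 of 24 (33.3%, against 17.4%) and higher at 0 (19.2%). DND41 was lower than HPB-ALL at 10 of 24 (41.7%, against 21%) and higher at 1 (4.17%, against 21.6%), which was DNAJA1-b.

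T-ALL1 was lower than KOPT-K past the threshold at 12 of 24 probe sets (50%, against 23.4% of all tested) and higher at 0 (27.4% of all tested). It lay below KOPT-K, past the threshold or not, at 22 of 24 probe sets, against 50.8% of all tested. With the actin 3′ minus 5′ difference, a measure of RNA integrity, as a covariate, T-ALL1 lay below KOPT-K at 12 of 24 probe sets, and 4 were called lower and 6 higher. The same covariate turned 0 of the 24 signs in each difference among CEM, DND41 and HPB-ALL. With the NBD peptide in place of the control peptide, HPB-ALL was still the highest of its 3 lines at 20 of 24 probe sets (34.1% of all tested), CEM the lowest at 12 of 24 (31.5%) and T-ALL1 below KOPT-K at 16 of 24 (43.3%). Probe sets of 1 gene share RNA and in part sequence, so these counts are of probe sets and not of independent measurements.

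**Figure D1:**
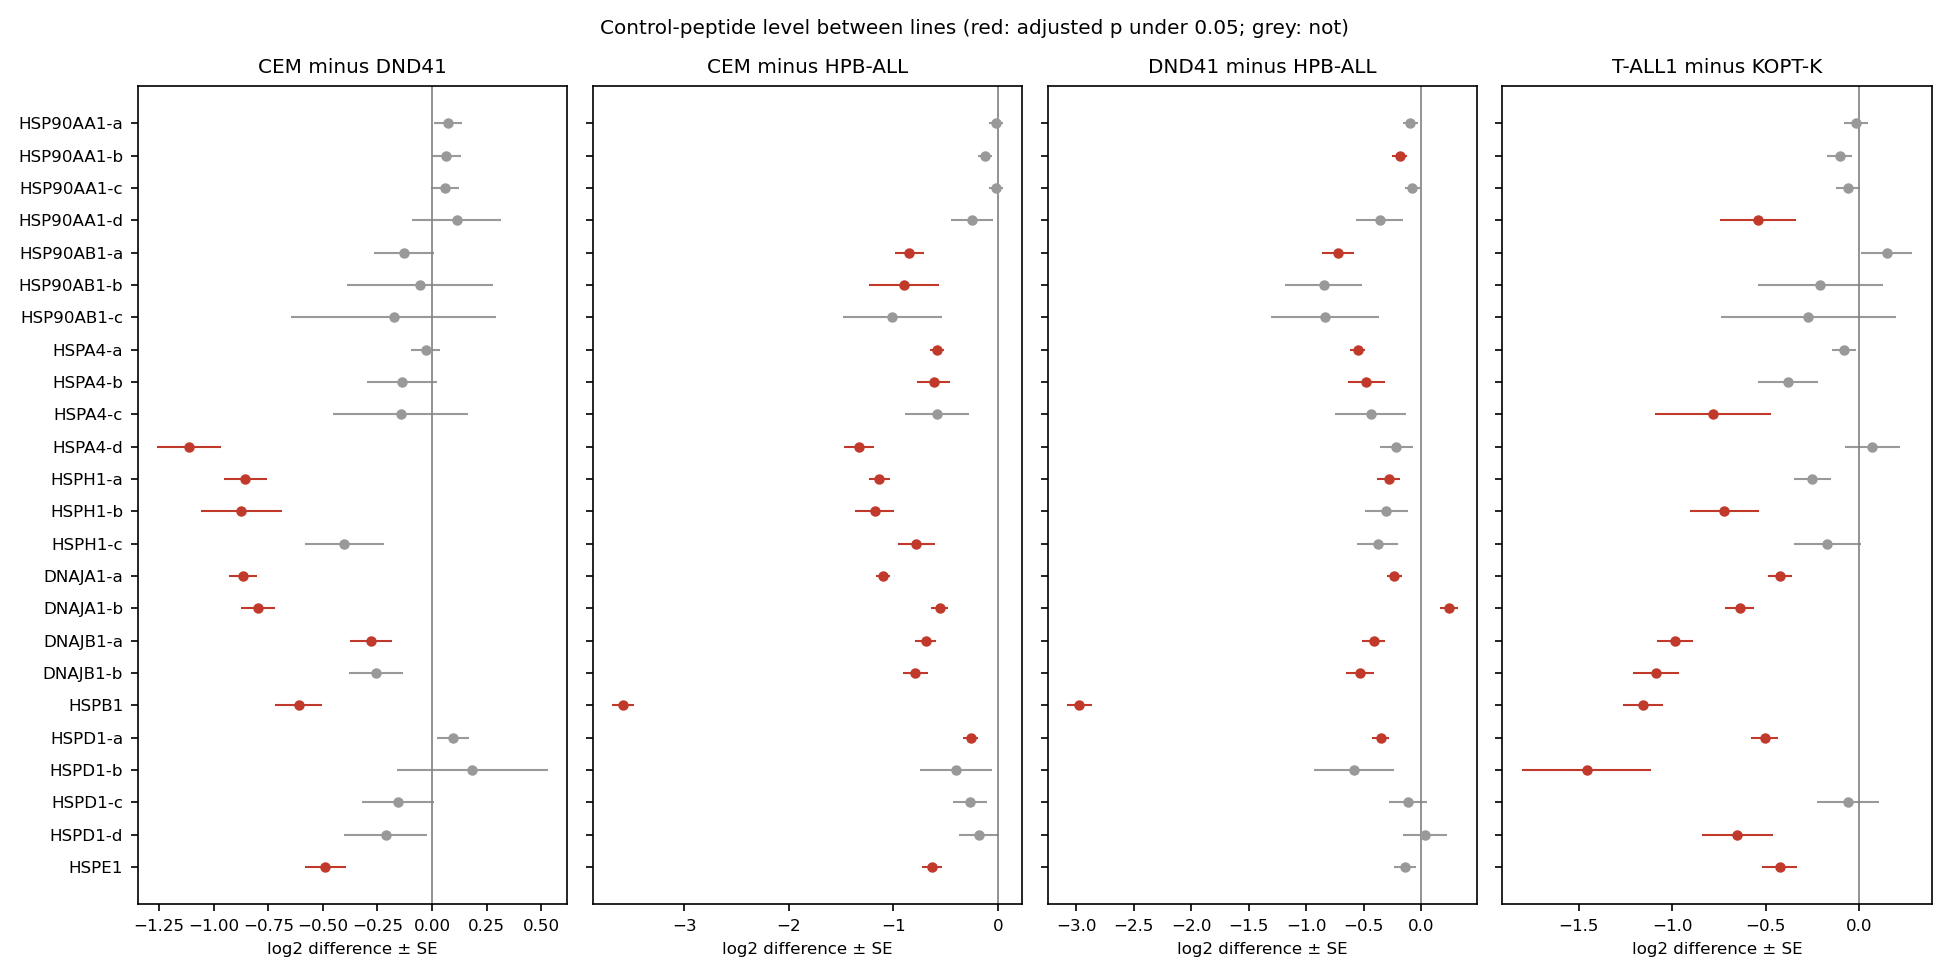
Differences in control-peptide level between lines (log2, x axis, with its SE) for the 24 chaperone probe sets (rows), in 4 panels of 2 lines each, with red for an adjusted p under 0.05 and grey for the rest. HSPB1 lies far to the left of the other probe sets in both panels that subtract HPB-ALL, at -3.58 and -2.97, and most points of all 4 panels lie left of 0.

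HSPB1, read at 1 probe set, measured 7.51 and 7.52 in CEM, 8.24 and 8.02 in DND41 and 11.15 and 11.05 in HPB-ALL with control peptide. The 3 lines did not overlap, and HPB-ALL stood far above the other two. CEM minus HPB-ALL was -3.58 ± 0.11 (SE, 2 arrays each), a 12.0-fold higher level in HPB-ALL (limma adjusted p = 4.19e-12). DND41 minus HPB-ALL was -2.97 ± 0.11 (limma adjusted p = 2.21e-11), and CEM minus DND41 was -0.61 ± 0.11 (limma adjusted p = 0.000387). In the other set of lines it measured 7.89 and 7.83 in T-ALL1 against 8.99 and 9.05 in KOPT-K, a difference of -1.16 ± 0.11 (limma adjusted p = 5.68e-07).

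The J-domain proteins hand clients to HSP70 and start its ATP cycle. DNAJA1-a measured 11.44 and 11.43 in CEM, 12.30 and 12.31 in DND41, and 12.54 and 12.53 in HPB-ALL with control peptide, so CEM stood well below the other two and these stood close together. The difference from DND41 was -0.87 ± 0.07 (limma adjusted p = 9.55e-08) and that from HPB-ALL was -1.10 ± 0.07 (limma adjusted p = 6.53e-09). DND41 minus HPB-ALL was -0.24 ± 0.07 at this probe set (limma adjusted p = 0.00932) and 0.24 ± 0.08 at DNAJA1-b (limma adjusted p = 0.0240), so the 2 probe sets disagree on the order of these lines. T-ALL1 stood below KOPT-K at both, with differences of -0.42 ± 0.07 and -0.64 ± 0.08. DNAJB1, the J-domain partner of HSP70 in refolding, was lower in T-ALL1 than in KOPT-K, with differences of -0.99 ± 0.10 at DNAJB1-a and -1.09 ± 0.12 at DNAJB1-b. It was also lower in CEM than in HPB-ALL, with differences of -0.69 ± 0.10 and -0.79 ± 0.12 at these probe sets.

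HSPH1 and HSPA4 are HSP110-type proteins that act as nucleotide exchange factors for HSP70. HSPH1-a measured 10.27 and 10.33 in CEM, 11.20 and 11.11 in DND41 and 11.49 and 11.38 in HPB-ALL with control peptide. CEM lay below both: the difference from DND41 was -0.85 ± 0.10 (limma adjusted p = 1.04e-05) and that from HPB-ALL was -1.14 ± 0.10 (limma adjusted p = 4.59e-07). HSPA4 depended on the probe set. At HSPA4-d CEM, with 5.71 and 5.94, stood below DND41, with 6.97 and 6.90, and the difference was -1.11 ± 0.15 (limma adjusted p = 3.13e-05). The CEM minus HPB-ALL difference there was -1.33 ± 0.15 (limma adjusted p = 4.38e-06). At HSPA4-a CEM and DND41 differed by only -0.03 ± 0.07 (limma adjusted p = 0.782), while both lay below HPB-ALL, with differences of -0.58 ± 0.07 and -0.55 ± 0.07. CEM minus DND41 was -0.14 ± 0.16 at HSPA4-b and -0.14 ± 0.31 at HSPA4-c (limma adjusted p = 0.559 and 0.773). HSPA4-d, the dimmest probe set of the gene, was thus the only one called between CEM and DND41.

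Of the cytosolic HSP90 genes, HSP90AB1, the constitutive form, was lower in CEM and in DND41 than in HPB-ALL, with differences of -0.85 ± 0.14 and -0.72 ± 0.14 at HSP90AB1-a (limma adjusted p = 0.000166 and 0.000682). HSP90AA1, the inducible form, gave CEM minus HPB-ALL differences of -0.12 to -0.02 at HSP90AA1-a, HSP90AA1-b and HSP90AA1-c, none past the threshold, and 1 of these probe sets passed in DND41 minus HPB-ALL, HSP90AA1-b at -0.19 ± 0.07 (limma adjusted p = 0.0340). Some HSP90AA1, HSPD1 and HSPE1 probe sets may also pick up near-identical processed pseudogenes, so their levels are less certain than those of single-copy genes.

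HSPD1 and HSPE1 encode HSP60 and HSP10, the mitochondrial folding chamber and its lid. HSPD1-a was lower in CEM than in HPB-ALL (-0.26 ± 0.07, limma adjusted p = 0.00949), lower in DND41 than in HPB-ALL (-0.35 ± 0.07, limma adjusted p = 0.00114) and lower in T-ALL1 than in KOPT-K (-0.51 ± 0.07, limma adjusted p = 4.34e-05). CEM and DND41 differed at HSPE1 by -0.49 ± 0.09 (limma adjusted p = 0.000867) but by 0.09 ± 0.07 at HSPD1-a (limma adjusted p = 0.355). Centred on each of the 2 sets of lines, HSPD1 and HSPE1 correlated at r = 0.71 over the 20 arrays. Centred on each line, r was 0.28. These and the following correlations are descriptions over arrays that share cell lines and libraries.

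Of the member pairs, HSPA4 and HSPB1 had the highest r over the 20 arrays centred on each set of lines, 0.94, but 0.08 centred on each line. DNAJA1 and HSPH1 had r = 0.91 and 0.65. By the rule used for likeness, the closest gene to HSPB1 over the 20 arrays was CD63 (r = 0.979), to DNAJB1 AP3M1 (0.987), to HSPD1 FABP5 (0.969), to HSP90AB1 XRCC6 (0.967), to HSPA4 POU4F1 (0.965), to DNAJA1 PIK3R4 (0.957), to HSPH1 MDH1 (0.951), to HSPE1 MRPL13 (0.925) and to HSP90AA1 IMMP1L (0.877). With 5 lines, a few arrays' line differences are enough to give such values. Probe sets of the same gene correlated at 0.956 for DNAJB1, 0.841 for DNAJA1 and 0.823 to 0.962 for HSP90AB1, but at -0.05 to 0.78 for HSPD1, where HSPD1-c and HSPD1-d were dim, at 5.52 or below.

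The second comparison asks what the NBD peptide did to chaperone RNA. Averaged over the 5 lines, 2 of 24 chaperone probe sets fell and 0 rose. HSPE1 fell by a small amount, and HSPH1 fell at the dimmest of its 3 probe sets only. No member of the HSP90 or J-domain groups passed the threshold in the average. The interval of the average difference lay wholly within 0.25 of 0, either way, at 16 of the 24 probe sets. With the actin covariate, other members were called: HSP90AB1-b and HSP90AB1-c, both lower, while HSPE1 and HSPH1-c were not, and 22 of 24 averages lay below 0 against 14 without it. In T-ALL1 that fit gave -1.24 at HSP90AB1-b and -1.85 at HSP90AB1-c. The actin difference did not overlap between the peptides in T-ALL1, CEM or DND41, so the average with this covariate cannot separate it from the peptide.

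The called shares were 8.33% lower and 0% higher, against 4.02% lower and 2.11% higher of all probe sets tested, so the members' count stands on 2 probe sets. At an unadjusted p under 0.05, 3 of 24 (12.5%) would be called, against 20.9% of all tested. The median average difference was -0.014 over the members and -0.002 over all probe sets. In simulated data with the same groups and the spread of each probe set, the test recovered 95% of changes of 0.5 common to all lines, and 36% of changes of 0.5 made in DND41 alone. The F-test between lines recovered 2% of changes of 0.5 and 67% of changes of 1 made in DND41 alone. The simulated noise was independent between arrays and had no array that stood apart, so recovery in the real data may be lower.

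HSPE1 measured 10.40 and 10.28 with NBD against 10.22 and 10.19 with control in CEM, 10.35 and 10.40 against 10.75 and 10.64 in DND41, 10.77 and 10.78 against 10.89 and 10.78 in HPB-ALL, 11.26 and 11.41 against 11.73 and 11.46 in T-ALL1, and 11.78 and 11.70 against 12.00 and 12.04 in KOPT-K. Its means were lower with NBD in 4 of the 5 lines and higher in CEM. The NBD and control arrays did not overlap in any of the 5 lines, though in HPB-ALL the higher NBD array and the lower control array both read 10.78. The average difference was -0.16 ± 0.04 (SE, limma adjusted p = 0.0427), with a 95% interval of -0.25 to -0.07. The call was lost on leaving out any of 17 of the 20 arrays, with the adjusted p then as high as 0.0977, and leaving out the DND41, HPB-ALL, T-ALL1 or KOPT-K line also ended it. With the actin covariate, HSPE1 gave -0.09 (limma adjusted p = 0.297).

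HSPH1-c measured 6.24 and 6.07 with NBD against 6.21 and 6.59 with control in CEM, 6.14 and 6.11 against 6.84 and 6.77 in DND41, 6.95 and 7.10 against 7.05 and 7.32 in HPB-ALL, 7.10 and 7.29 against 7.76 and 7.22 in T-ALL1, and 7.48 and 7.38 against 7.86 and 7.45 in KOPT-K. The means were lower with NBD in all 5 lines, but NBD and control arrays were fully apart in DND41 alone. The average difference was -0.32 ± 0.08 (limma adjusted p = 0.0323), and the actin covariate took it to -0.24 (limma adjusted p = 0.213). The call was lost on leaving out any of 10 of the 20 arrays (adjusted p as high as 0.0760), and without the CEM, DND41, HPB-ALL or KOPT-K line. The brighter HSPH1 probe sets did not show it: HSPH1-a averaged -0.07 ± 0.04 (limma adjusted p = 0.445) and HSPH1-b 0.17 ± 0.08 (limma adjusted p = 0.278). HSPH1 therefore has no single direction over its probe sets in the average.

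HSPB1 averaged -0.14 ± 0.05 (limma adjusted p = 0.0926), lower in 4 of 5 lines and not past the threshold. The 3 brightest HSP90AA1 probe sets averaged -0.03 to -0.01, and the other members outside the threshold ran from -0.10 at HSPD1-d to 0.25 at HSP90AB1-c. When the 5 lines were taken as the replicates, with 1 mean per line and peptide, 0 of all tested probe sets passed in limma (lowest adjusted p = 0.241, with 2789 at an unadjusted p under 0.05). HSPE1 and HSPH1-c had adjusted p = 0.527 and 0.252 there.

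**Figure D2:**
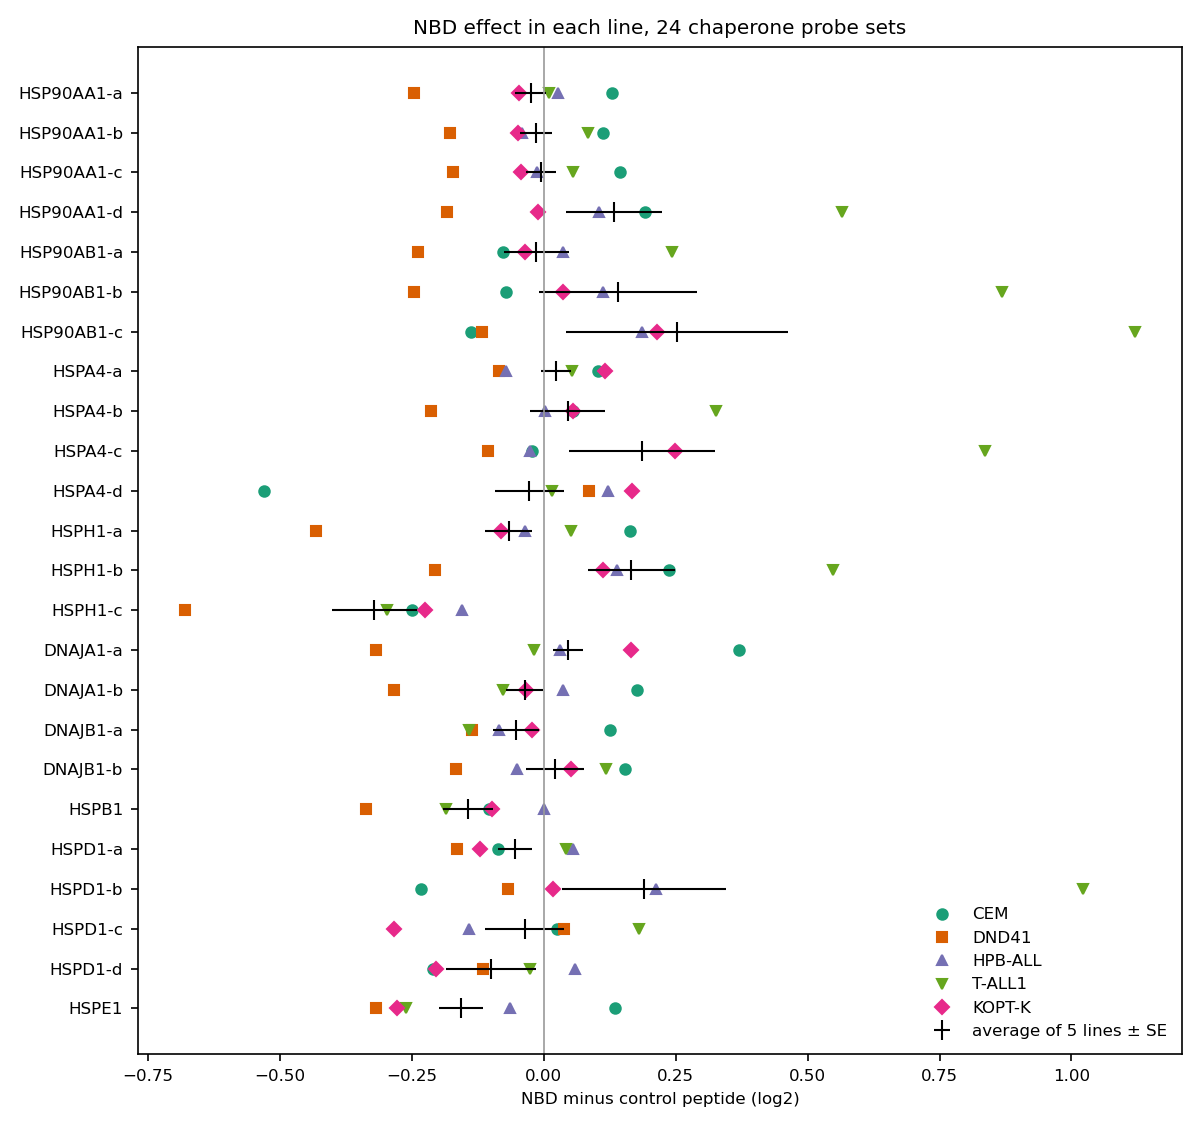
NBD minus control difference (log2, x axis) of the 24 chaperone probe sets (rows) in CEM, DND41, HPB-ALL, T-ALL1 and KOPT-K (coloured points, 2 arrays per peptide) and their average (black bar with its SE). DND41 is left of 0 at 22 of 24 rows and CEM right of 0 at 14 of 24, and the 3 points farthest to the right are T-ALL1 values of HSP90AB1-c, HSPD1-b and HSP90AB1-b.

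The lines were then compared with each other, because an average can hide lines that move apart. DNAJA1 did so: it rose with NBD in CEM and fell with NBD in DND41. At DNAJA1-a it measured 11.78 and 11.84 with NBD against 11.44 and 11.43 with control in CEM, and 11.99 and 11.98 with NBD against 12.30 and 12.31 with control in DND41. In neither line did NBD and control arrays overlap. The NBD arrays of these lines lay closer to each other than their control arrays did.

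The CEM difference was 0.37 ± 0.07, 1.29-fold higher with NBD (limma adjusted p = 0.0205), the only one of 24 chaperone probe sets called higher in CEM (4.17%, against 0.213% of all tested) with 0 called lower (0.419% of all tested). The DND41 difference was -0.32 ± 0.07, 1.25-fold lower with NBD (limma adjusted p = 0.0363), the only one called lower in DND41 (4.17%, against 0.826%) with 0 called higher (0.377%). The test of a difference of the NBD effect between the 5 lines called this 1 probe set of 24 (4.17%, against 1.09% of all tested), with limma F-test adjusted p = 0.0187. In HPB-ALL it measured 12.54 and 12.60 with NBD against 12.54 and 12.53 with control, in T-ALL1 12.26 and 12.20 against 12.22 and 12.27, and in KOPT-K 12.80 and 12.88 against 12.68 and 12.67. The other DNAJA1 probe set, DNAJA1-b, had the same signs, 0.18 in CEM and -0.28 in DND41, without passing the threshold (limma adjusted p = 0.394 and 0.109). The F-test call was lost on leaving out any of 5 of the 20 arrays, with the adjusted p then as high as 0.0724. The CEM call was lost without any of 4 arrays (as high as 0.199) and the DND41 call without any of 14 (as high as 0.248). The signs were kept in each of these fits.

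**Figure D3:**
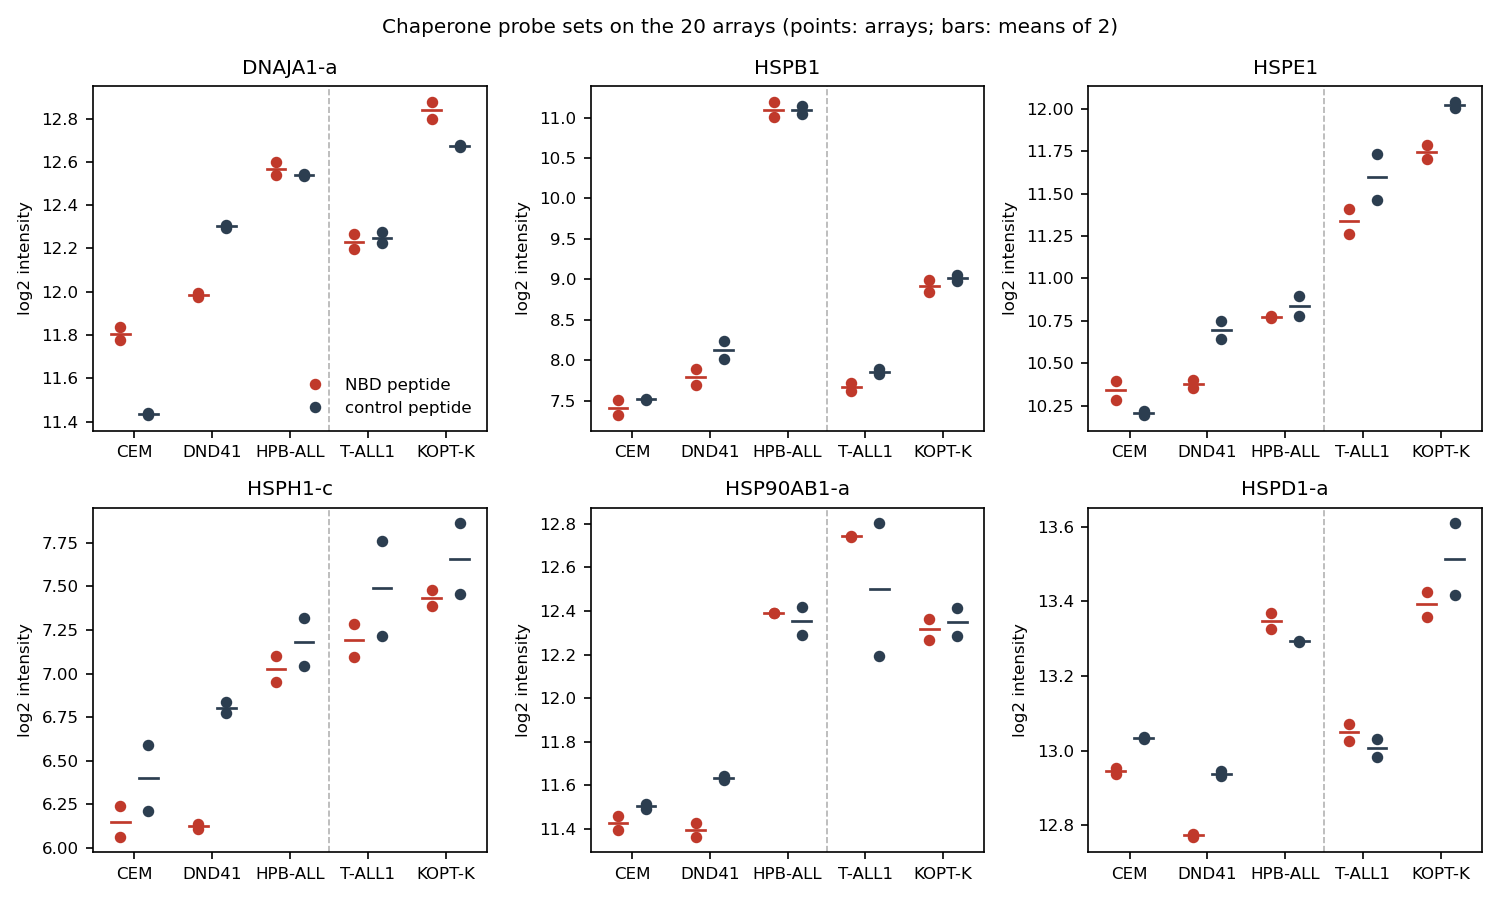
Log2 intensity (y axis) of 6 chaperone probe sets on the 20 arrays by line (x axis), with NBD-peptide arrays in red left of control-peptide arrays in dark blue, points for arrays and bars for the mean of 2. The dashed line separates the 2 sets of lines, between which levels are not compared. DNAJA1 is higher with NBD in CEM and lower with NBD in DND41, and HPB-ALL stands far above CEM and DND41 at HSPB1.

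DND41 stood out for how many members lay on the same side. The NBD mean was below the control mean at 22 of 24 chaperone probe sets, while 49.2% of all probe sets tested lay above 0 in this line. At 21 of 24 (87.5%) both NBD arrays were below both control arrays, against 24.8% of all tested, and at 1 both were above (4.17%, against 22.7%). The median difference was -0.18 over the members and -0.003 over all. At the highest-mean probe set of each gene, 9 of 9 members were lower, against 54.5% of all genes tested.

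Bright probe sets leaned lower in DND41 as a class: of the 3513 probe sets with a mean of at least 10, 59.9% were lower with NBD, with a median of -0.03, and the 16 members among them were all lower, with a median of -0.21. The count of 22 of 24 was the same after quantile normalization within each set of lines, with each array centred on its median and with the actin covariate. The actin difference itself averaged 1.27 ± 0.08 with NBD and 1.42 ± 0.05 with control in DND41 (SD, n = 2 each), without overlap. The covariate fit therefore cannot separate RNA integrity from the peptide in this line. The part of RNA integrity in the result was not tested beyond that covariate. Only 1 of the 24 probe sets passed the adjusted threshold, and 10 of 24 (41.7%) had an unadjusted p under 0.05, against 12.7% of all tested.

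Of the HSP70 exchange factors in DND41, HSPH1-a measured 10.77 and 10.67 with NBD against 11.20 and 11.11 with control (-0.43 ± 0.10, limma adjusted p = 0.0569). HSPH1-c gave -0.68 ± 0.18 (limma adjusted p = 0.0961). HSP90AA1-a measured 13.50 and 13.51 with NBD against 13.77 and 13.73 with control (-0.25 ± 0.06, limma adjusted p = 0.0936). None of these 3 passed the threshold. With 1 probe set per gene, HSP90AA1, HSPH1-a and DNAJA1-a all passed (limma adjusted p = 0.0415, 0.0323 and 0.0139), 3 of 9 members against 2.48% of all genes. HSPB1 measured 7.89 and 7.69 with NBD against 8.24 and 8.02 with control (-0.34 ± 0.11, limma adjusted p = 0.173), and HSPE1 gave -0.32 ± 0.09 (limma adjusted p = 0.140). HSPD1-a gave -0.17 ± 0.07 with arrays at 12.77 and 12.78 with NBD against 12.94 and 12.93 with control (limma adjusted p = 0.363).

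In CEM the members were less one-sided. The NBD mean was above the control mean at 14 of 24 chaperone probe sets, against 44.7% of all tested, and both NBD arrays were above both control arrays at 12 of 24 (50%, against 18.8% of all tested), with both below at 6 of 24 (25%, against 28.6%). The actin difference was higher with NBD in this line, at 1.76 ± 0.07 against 1.45 ± 0.004 with control (SD, n = 2 each), without overlap. With it as a covariate, 5 of 24 members lay below 0 in place of 10, the median was 0.16 in place of 0.08, and 3 were called higher, against 1.29% of all probe sets called in either direction. That fit cannot separate the actin difference from the peptide in CEM. The HSP90AA1 probe sets were above 0 in CEM, at 0.11 to 0.19, and below 0 in DND41, at -0.25 to -0.17, but their F-tests between lines did not pass (adjusted p = 0.188 to 0.471). In the simulated data this F-test recovered only 2% of changes of 0.5 made in DND41 alone. Opposite changes in CEM and DND41 were not simulated, so that share does not describe recovery of the HSP90AA1 pattern. HSPA4-d went the other way in CEM, with 5.26 and 5.32 with NBD against 5.71 and 5.94 with control (-0.53 ± 0.15, limma adjusted p = 0.144). At HSPA4-a the CEM difference was 0.10.

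HPB-ALL, T-ALL1 and KOPT-K had 0 of 24 members past the threshold in either direction. The shares of all probe sets tested were 0.0685% higher and 0.305% lower in HPB-ALL, 2.83% higher and 2.85% lower in T-ALL1, and 0.644% higher and 0.187% lower in KOPT-K. At an unadjusted p under 0.05 the limma counts were 0, 7 and 2 of 24 in these lines, against 8.8%, 23.5% and 10.6% of all tested. The member medians were 0.01 in HPB-ALL, 0.05 in T-ALL1 and -0.03 in KOPT-K. In T-ALL1 the actin covariate turned the median to -0.32, with 17 of 24 members below 0 in place of 7 and 2 called lower. The actin difference did not overlap between the peptides in T-ALL1, so that fit cannot separate it from the peptide.

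The widest NBD differences of all were in T-ALL1, and they came with 1 control array that stood apart. HSP90AB1-c measured 11.71 and 11.48 with NBD against 9.51 and 11.44 with control in T-ALL1 (1.12 ± 0.47, limma adjusted p = 0.170). HSPD1-b measured 11.59 and 11.39 with NBD against 9.76 and 11.17 with control (1.02 ± 0.35, limma adjusted p = 0.0961). In both, the control arrays 1 and 2 differed from each other by more than control array 2 differed from the NBD arrays.

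The brightest probe sets of the same genes moved less. HSPD1-a measured 13.07 and 13.03 with NBD against 12.98 and 13.03 with control (0.04 ± 0.07). HSP90AB1-a gave 0.24 ± 0.14, with control arrays 1 and 2 at 12.19 and 12.80. HSP90AB1-b moved with HSP90AB1-c, at 11.93 and 11.88 with NBD against 10.25 and 11.83 with control (0.87 ± 0.33, limma adjusted p = 0.137). The actin 3′ minus 5′ difference, between a probe set at each end of the transcript, which grows as RNA is shortened from its 5′ end, was 1.07 and 0.99 in the T-ALL1 NBD arrays against 3.16 and 2.05 in the control arrays. Without T-ALL1 control 1, the differences became 0.16 at HSP90AB1-c and 0.32 at HSPD1-b. With the actin covariate they were -1.85 (limma adjusted p = 0.0296) and -1.14 (limma adjusted p = 0.0813). The actin difference did not overlap between the peptides in T-ALL1, and its spread was widest in the T-ALL1 control group (SD 0.78, n = 2). The covariate fit therefore cannot separate RNA integrity from peptide in this line, and its values depend on these 2 control arrays. Without T-ALL1 control 2, 10 of 24 members were called in T-ALL1, 8 higher and 2 lower, among 25.3% of all probe sets. KOPT-K control 1 and 2 were also apart, with 11.36 and 10.14 at HSP90AB1-c and actin differences of 0.74 and 1.14.

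**Figure D4:**
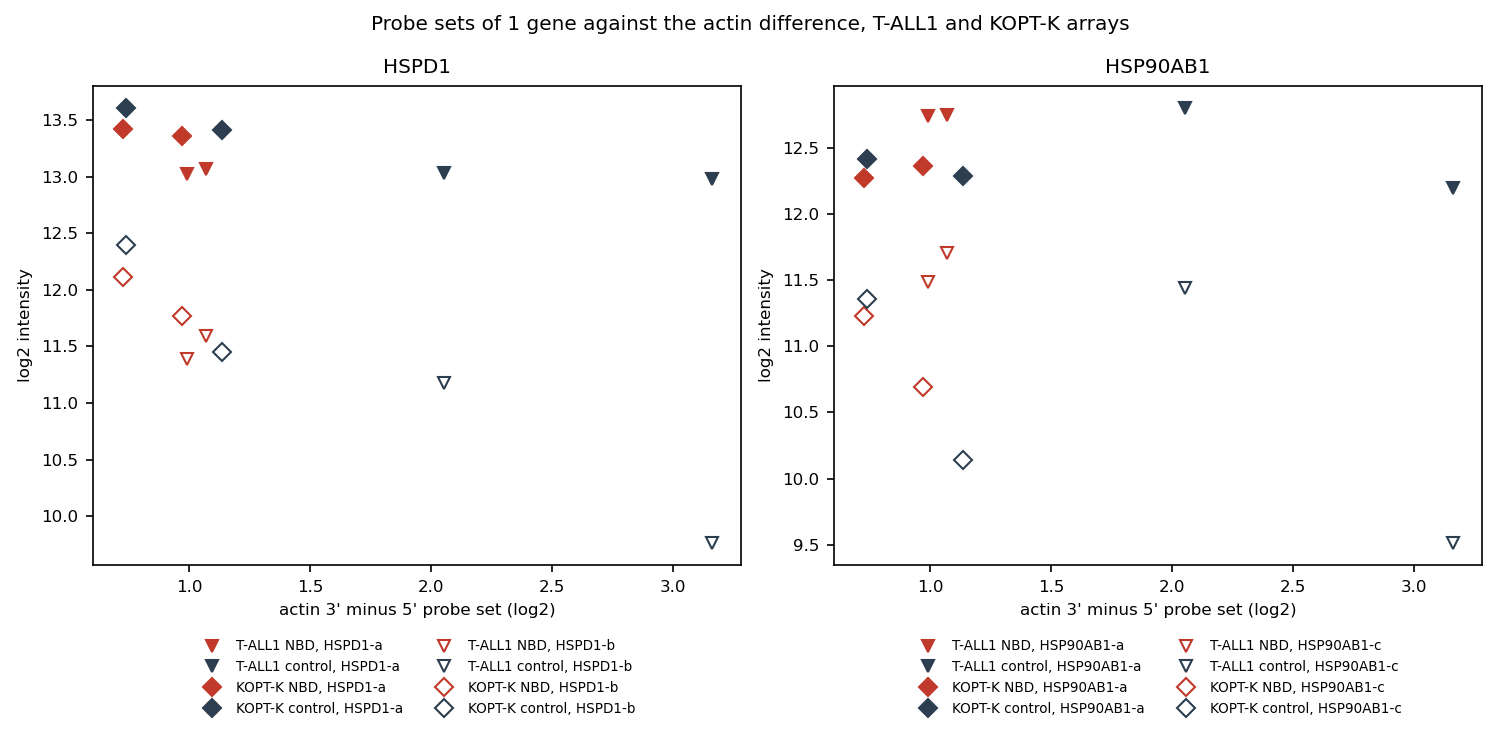
Log2 intensity (y axis) of 2 probe sets each of HSPD1 (left) and HSP90AB1 (right) against the actin 3′ minus 5′ difference (log2, x axis) on the 8 T-ALL1 (triangles) and KOPT-K (diamonds) arrays, NBD in red and control in dark blue. The open symbols, HSPD1-b and HSP90AB1-c, are lowest at the T-ALL1 control array with the actin difference of 3.16, while HSPD1-a (filled) stays near 13 on all T-ALL1 arrays.

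The level comparison of T-ALL1 with KOPT-K rests on these same control arrays. The number of members called, 12 and all lower in T-ALL1, ranged from 7 to 16 on leaving out each array in turn. Without T-ALL1 control 1 it was 10, with 8 lower and 2 higher, and the 2 were HSP90AB1-a at 0.45 (limma adjusted p = 0.000742) and HSP90AB1-b at 0.58 (limma adjusted p = 0.0137). With the actin covariate 10 were called, 6 higher and 4 lower, against 28.3% of all probe sets called in either direction, and 10 of 24 signs turned. The widest turns were at HSP90AB1-c, which gave 2.88 in place of -0.27, and HSP90AB1-b, which gave 2.02 in place of -0.21 (limma adjusted p = 2.53e-05 and 3.56e-05 with the covariate). The actin difference of the control arrays was 3.16 and 2.05 in T-ALL1 against 0.74 and 1.14 in KOPT-K, without overlap. The covariate fit therefore cannot separate RNA integrity from line here. HSPD1-b, at -1.46 in T-ALL1 minus KOPT-K (9.76 and 11.17 in T-ALL1 against 12.40 and 11.45 in KOPT-K), turned to 0.83 with the actin covariate. The covariate also ended the calls at DNAJB1-b (-0.54, limma adjusted p = 0.0647), DNAJA1-a (-0.36, limma adjusted p = 0.0588) and HSPD1-a (-0.35, limma adjusted p = 0.0863). The 4 members still called lower with it were HSPB1 at -1.40, HSPE1 at -0.80, DNAJB1-a at -0.69 and DNAJA1-b at -0.49.

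The wider chaperone network was read from 9 lists that hold 81 other genes, 70 of them tested at their highest-mean probe set. In the average over lines, 2 of 70 fell and 0 rose, against 5.08% lower and 1.64% higher of all genes tested, and both were HSP90 co-chaperones. STUB1, a ubiquitin ligase that sends HSP70 and HSP90 clients for degradation, averaged -0.25 ± 0.04 (limma adjusted p = 0.00207), was lower in 5 of 5 lines and was called the same way at both of its other probe sets. FKBP5, a peptidyl-prolyl isomerase of steroid receptor complexes, averaged -0.18 ± 0.04 (limma adjusted p = 0.0245), lower in 5 of 5 lines, with none of its 2 other probe sets called the same way.

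In the remaining 8 lists, which hold other HSP70 and HSP110 genes, J-domain proteins, small heat shock proteins, HSP70 exchange and adaptor proteins, mitochondrial chaperones and proteases, subunits of the cytosolic TRiC chaperonin, heat shock factors and endoplasmic reticulum chaperones, 0 genes passed in the average. HSF1, the main heat shock factor, gave -0.07 ± 0.05 (limma adjusted p = 0.498). TRAP1, the mitochondrial HSP90, gave -0.09 ± 0.03 (limma adjusted p = 0.135), and the J-domain protein DNAJB2 gave 0.17 ± 0.05 (limma adjusted p = 0.0859). List medians in the average ran from -0.05 for the heat shock factors to 0.03 for the J-domain proteins, with -0.01 over all genes.

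In DND41, 60 of the 70 other chaperone genes were lower with NBD (85.7%, against 54.5% of all genes tested), with a median of -0.11 and 0 past the threshold (0.398% of all genes tested were called higher and 1.09% lower). The TRiC subunits had a median of -0.16 and the endoplasmic reticulum chaperones -0.22, including PDIA6, a disulfide isomerase, at -0.31 ± 0.10 (limma adjusted p = 0.163). In CEM 31 of the 70 were lower (44.3%, against 53.2% of all genes tested). In limma 0 of the 70 passed in CEM, HPB-ALL or KOPT-K, where 0.26%, 0.0796% and 0.673% of all genes were called higher and 0.463%, 0.383% and 0.26% lower. In T-ALL1 5 of the 70 rose and 1 fell (1.26% and 2.59% of all genes tested): DNAJC9, PPP5C, TIMM44, HSP90B1 and DNAJB11 rose by 0.42, 0.52, 0.38, 0.75 and 0.48, and STUB1 gave -0.37. These T-ALL1 genes were named after their values were seen, and they rest on the control arrays described above. Other probe sets of the 5 that rose were counted in the average over lines only, where none was called higher. DNAJB11 had no other tested probe set.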

How the data were processed

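The authors deposited 1 linear intensity per probe set and array; the submitters' processing notes name RMA, with no version. RNA was amplified in 2 cycles from 20 ng and labelled with biotin, per the labels' protocols. Columns fall into 2 kinds: T-ALL1 and KOPT-K with mean intensities of 386.9 to 396.1 and up to 7 decimals, the other lines with 341.0 to 347.7 and 2 decimals. These look like separate processing runs, so levels were compared within each. Here log2 of the deposited intensity was taken with no pseudocount. Of 54675 probe sets, 41097 have 1 gene symbol, 1801 several and 11777 none in the platform annotation, and 41043 matched RefSeq. Those with 1 symbol and an intensity of at least 31.96, the median of all values, on at least 2 arrays were tested (26260, 13822 genes). A probe set's level was never set against another's.

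One limma model (version 3.58.1, R 4.3.3) with 10 group means gave the NBD effect per line, their average, the F-test of the effect between lines and the control-peptide levels, with 10 residual and 3.43 prior degrees of freedom. It was tested on simulated data. The number of arrays limits the precision. Replicate numbers did not pair the arrays: the correlations of same-numbered arrays' deviations were -0.06, 0.21, -0.09, -0.28 and -0.37 in CEM, DND41, HPB-ALL, T-ALL1 and KOPT-K.

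The text names every listed gene, and its counts take in all tested probe sets of each gene except HSPA8. It also names the genes of 9 further lists that were called in the average. Where none was, names were drawn from the 2 with the largest average differences. The genes most like each member by Pearson r of run-centred values are named too. The members, lists and tests were chosen with earlier results of these data known. Alternatives covered probe set choice, the filter, normalization, pseudocount, variance prior, the replicate block, the actin covariate, single arrays, single lines and lines as replicates. Promoter windows come from RefSeq on GRCh38.p14.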

Additional observations from a re-analysis of the deposited data

Results flagged for a closer look

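The NBD effect on DNAJA1-a differed between the lines (limma F-test adjusted p = 0.0187). NBD minus control was 0.37 ± 0.07 in CEM and -0.32 ± 0.07 in DND41 (SE, 2 arrays per peptide), with 0.03 in HPB-ALL, -0.02 in T-ALL1 and 0.16 in KOPT-K. The second DNAJA1 probe set had the same signs in CEM and DND41 but did not pass the F-test (adjusted p = 0.187). With 2 arrays per group, no group was large enough to look for single outlying arrays by this route.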

How the results depend on the processing

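The counts of chaperone probe sets past the threshold are small and moved with the settings. For the average over lines, 2 in the fit reported, the count was 1 with 1 probe set per gene, without the filter, with arrays centred on their medians, without CEM and without T-ALL1, and 0 without DND41, without HPB-ALL, without KOPT-K and with lines as replicates. Fits of single sets of lines, chosen after seeing the data, gave 0 in T-ALL1 and KOPT-K and 1 in CEM, DND41 and HPB-ALL. Leaving out single arrays gave 0 to 5, the 5 without T-ALL1 control 2, where 15.3% of all probe sets were called. For the difference between lines, 1 in the fit reported, the count was 0 without the filter, without CEM, without DND41 and in the fit of T-ALL1 with KOPT-K, 2 with the actin covariate (1.2% of all probe sets) and 6 with a trended robust prior (3.14%), and 0 to 9 without single arrays, the 9 without T-ALL1 control 2 (11.9%). CEM, 1 in the fit reported, gave 0 without the filter, 3 with the actin covariate (1.29% of all) and 0 to 1 without single arrays. DND41, 1 in the fit reported, gave 0 without the filter and with quantile normalization, 2 with a pseudocount of 16 (1.8% of all) and with the actin covariate (2.3%), 3 with 1 probe set per gene (2.48%) and in the fit of CEM, DND41 and HPB-ALL (1.94%), 7 with the trended robust prior (2.53%), and 0 to 5 without single arrays, the 5 without either T-ALL1 control array (2.29%). T-ALL1, 0 in the fit reported, gave 1 with the trended robust prior (8.26% of all), 2 with the actin covariate (0.442%) and 0 to 10 without single arrays, the 10 without T-ALL1 control 2 (25.3%), while HPB-ALL and KOPT-K gave 0 to 0. For levels among CEM, DND41 and HPB-ALL, 14 became 8 (of 9) with 1 probe set per gene and 13 to 17 without single arrays, and for T-ALL1 against KOPT-K 12 became 6 (of 9) and 7 to 16, and 10 with the actin covariate, where 6 were higher and 4 lower in place of 0 and 12. The actin covariate turned 8 of 24 signs in the average, 16 in the T-ALL1 effect, 5 in the CEM effect, 2 in KOPT-K, 1 in HPB-ALL and 0 in DND41, and 10 in T-ALL1 minus KOPT-K. Among these, the average became -0.28 at HSP90AB1-b and -0.34 at HSP90AB1-c, and T-ALL1 minus KOPT-K became 2.88 at HSP90AB1-c, 2.02 at HSP90AB1-b, 0.77 at HSP90AA1-d, 1.10 at HSPA4-c, 0.43 at HSPH1-b and 0.83 at HSPD1-b. In the T-ALL1, CEM and DND41 effects and in T-ALL1 minus KOPT-K the actin difference did not overlap between the groups compared. Those covariate fits cannot separate it from peptide or line. The average over lines takes in these effects of the peptide and shares the limit. With the replicate number as a block, the limma adjusted p was 0.0289 for the DNAJA1 difference between lines, 0.0321 in CEM, 0.0492 in DND41, 0.0470 for HSPE1 and 0.0428 for HSPH1, so these calls held. The causes were not tested beyond the settings named.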
